A study of Saccharomyces cerevisiae with 96 samples.

Results

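Mitochondrially encoded protein mRNAs are the 8 messages that the mitochondrial genome of budding yeast carries for stable proteins, and they were chosen by name: COX1 (Q0045), COX2 (Q0250), COX3 (Q0275), COB (Q0105), ATP8 (Q0080), ATP6 (Q0085), OLI1 (Q0130) and VAR1 (Q0140). They are 8 of the 7647 RNAs listed in the capture tables, of the 7620 RNAs in the transcriptome tables and of 6598 mRNAs, and 8 of 28 mitochondrial reading frames. The rule uses names and no measured value. The study asked which yeast RNAs carry an NAD cap and which enzymes remove it, and sequenced 96 libraries of 8 strains with 3 biological replicates per group. All strains were BY4742 (MATα his3Δ1 leu2Δ0 lys2Δ0 ura3Δ0), grown in YPD to log phase: the wild type (WT), npy1Δ (npy1::kanMX4), dxo1Δ (dxo1::natNT2), rai1Δ (rai1::hphNT1), and the combinations dxo1Δnpy1Δ, dxo1Δrai1Δ, rai1Δnpy1Δ and dxo1Δrai1Δnpy1Δ. The sources used here give no number of independent clones per strain. Of the libraries, 48 were NAD captures of unfragmented RNA in all 8 strains, 12 were captures of small fragments and 12 of large fragments in WT and npy1Δ, and 24 were transcriptomes. In NAD captureSeq the enzyme ADP-ribosyl cyclase (ADPRC) tags the NAD at the 5′-end for biotinylation and streptavidin pull-down, so each capture was compared with a control that lacked the enzyme (−ADPRC).

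The products of these mRNAs are membrane subunits of the respiratory chain and the ATP synthase, with 1 exception. Cox1, Cox2 and Cox3 form the core of cytochrome c oxidase, and COB encodes cytochrome b of the cytochrome bc1 complex. Atp6, Atp8 and Oli1 (subunit 9 of the rotor ring) belong to the membrane part of the ATP synthase, while Var1 is a protein of the small mitochondrial ribosomal subunit. The genome is transcribed by the single-subunit polymerase Rpo41 with its factor Mtf1 from a short AT-rich promoter sequence, mostly as polycistronic RNAs that are cut into mature messages. Yeast mitochondrial mRNAs carry no m7G cap, and an initiating polymerase can use NAD in place of ATP where transcription starts with A. Npy1 is a Nudix hydrolase that acts on NAD and NAD caps, and Dxo1 and Rai1 belong to the family of deNADing enzymes. The study considers it unlikely that these enzymes meet transcripts inside mitochondria. It cites a missing targeting sequence and their absence from proteomic data of yeast mitochondria.

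The deletions were first checked in the transcriptome counts. NPY1 had 35, 51 and 32 reads in the WT libraries and 1, 1 and 0 in npy1Δ. The other 3 strains without NPY1 had 3 to 13 reads, against 124 to 195 in dxo1Δ, rai1Δ and dxo1Δrai1Δ. RAI1 and DXO1 had at most 2 reads in any library of a strain that lacks them, although DXO1 was at 0, 0 and 5 reads in WT too. The 8 sequencing runs in the labels divide the strains: WT and npy1Δ shared a run in each library kind, and the other 6 strains were sequenced in other runs, so that their differences from WT cannot be told apart from run. mRNAs took a small part of each unfragmented library. Per library, −ADPRC controls held 1162 to 78845 reads in mRNA 5′ regions (median 10197) and +ADPRC libraries 29995 to 872995 (median 245438), against 1193668 to 2393366 in the transcriptomes.

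The start of transcription is what an NAD cap marks, so the sequences before the start codons are shown first. The promoter of yeast mitochondrial genes is known as the nonanucleotide ATATAAGTA, whose last A is the first transcribed base. It was searched on both strands of the RefSeq R64 mitochondrial genome (S288C, 85779 bases, 82.9% A or T), which is not the assembly to which the authors mapped their reads. There were 14 matches, and 0.895% of all windows of 120 bases held at least 1. No exact match lay in the 120 bases before the start codon of any of the 8 genes. The window of COX2 held a variant, TTAAAAGTA, whose last base lies 54 bases before the start codon. It differs from the promoter sequence by A1T and T4A, counted from the 5′ end of the motif, and 0.327% of windows of 120 bases held it. Sequences closer to the motif, 1 letter away, lay in the windows of COB (A5T), ATP6 (G7T) and OLI1 (G7T and G7A), with the last base 43, 46, and 80 and 62 bases before the start codon, and 30.2% of all windows held one. COX1, COB and OLI1 had exact matches further upstream, with the last base 461, 1654, and 644 and 566 bases before the start codon. A match is a description of the letters, and 87.2% of all windows held a sequence within 2 letters of the motif. In the lines below capitals mark the motif, its variant or a sequence 1 letter from it, and all are on the + strand of R64.
COX2, chrM:73686-73715: taaattttaaTTAAAAGTAgtattaacata
COX1, chrM:13339-13368: ataagtattgATATAAGTAatagatataat
COB, chrM:34868-34897: aagaaatattATATAAGTAatatataaaaa
OLI1, first, chrM:46061-46090: attaatattaATATAAGTAatatatatagt
OLI1, second, chrM:46139-46168: atacacatttATATAAGTAtatatatatat
COB, 1 letter away, chrM:36479-36508: tatatataaaATATTAGTAataaataatat
ATP6, 1 letter away, chrM:28423-28452: gtataataagATATAATTAtgattaattat
OLI1, 1 letter away, first, chrM:46625-46654: atatatttatATATAATTAtatatatatat
OLI1, 1 letter away, second, chrM:46643-46672: atatatatatATATAAATAataataaatat

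For each mRNA the capture counts cover 120 bases before to 65 bases after the A of the start codon, called the 5′ region here. Read depth over this window differed sharply between the 8 mRNAs. COX2 collected 28660 reads over the 72 capture libraries, OLI1 2084, COX3 684, ATP6 338, ATP8 166 and VAR1 5. The 5′ regions of COX1 and COB were listed at 0 in all 96 libraries, also in the transcriptomes, where their coding sequences held 770165 and 316399 reads. The intron reading frames that share their start codons (AI1, AI2, AI3, AI4 and AI5_ALPHA with COX1, and BI2, BI3 and BI4 with COB) were at 0 too, while AI5_BETA, an intron frame of COX1 listed as an entry of its own, had 730 reads in the transcriptomes. The counting program sets aside reads that fit several entries; its part in these zeros was not tested. No statement on NAD capture of COX1 or COB mRNA can be made from these counts.

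COX2 was captured in every strain. In unfragmented WT RNA, COX2 had 40, 30 and 24 reads without ADPRC and 2998, 1938 and 993 with it, a log2 fold change of 5.41 (SE 0.37, adjusted p = 5.01e-44), or 42.6-fold. In npy1Δ the counts were 9, 18 and 11 against 1156, 739 and 1053, which gave 5.41 (SE 0.39, adjusted p = 3.70e-07). All treated libraries lay above all controls in both strains, and the fold changes of these strains lay within a standard error of each other.

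The other 6 strains had at most 9 COX2 reads in any control library. In dxo1Δ the control counts were 2, 0 and 4 and the treated counts 320, 379 and 367, a log2 fold change of 6.57 (SE 0.47). In dxo1Δnpy1Δ they were 8, 1 and 7 against 515, 1537 and 342, with 4.26 (SE 1.33). Strains without RAI1 showed the same direction. In rai1Δ the counts were 8, 2 and 0 against 2047, 380 and 180, with 5.43 (SE 1.26). In rai1Δnpy1Δ they were 4, 0 and 2 against 351, 265 and 267, with 6.66 (SE 0.46). In these pairs each treated library again stood far above every control. In dxo1Δrai1Δ the counts were 2, 1 and 3 against 1994, 1027 and 968, with 6.94 (SE 0.60). In dxo1Δrai1Δnpy1Δ they were 2, 2 and 9 against 759, 1891 and 2117, with 5.74 (SE 1.35). The groups did not overlap in any of the 8 strains, and the largest adjusted p of the 6 was 0.00323, in dxo1Δnpy1Δ. The share of all RNAs without overlap was not taken in any capture comparison.

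**Figure D1:**
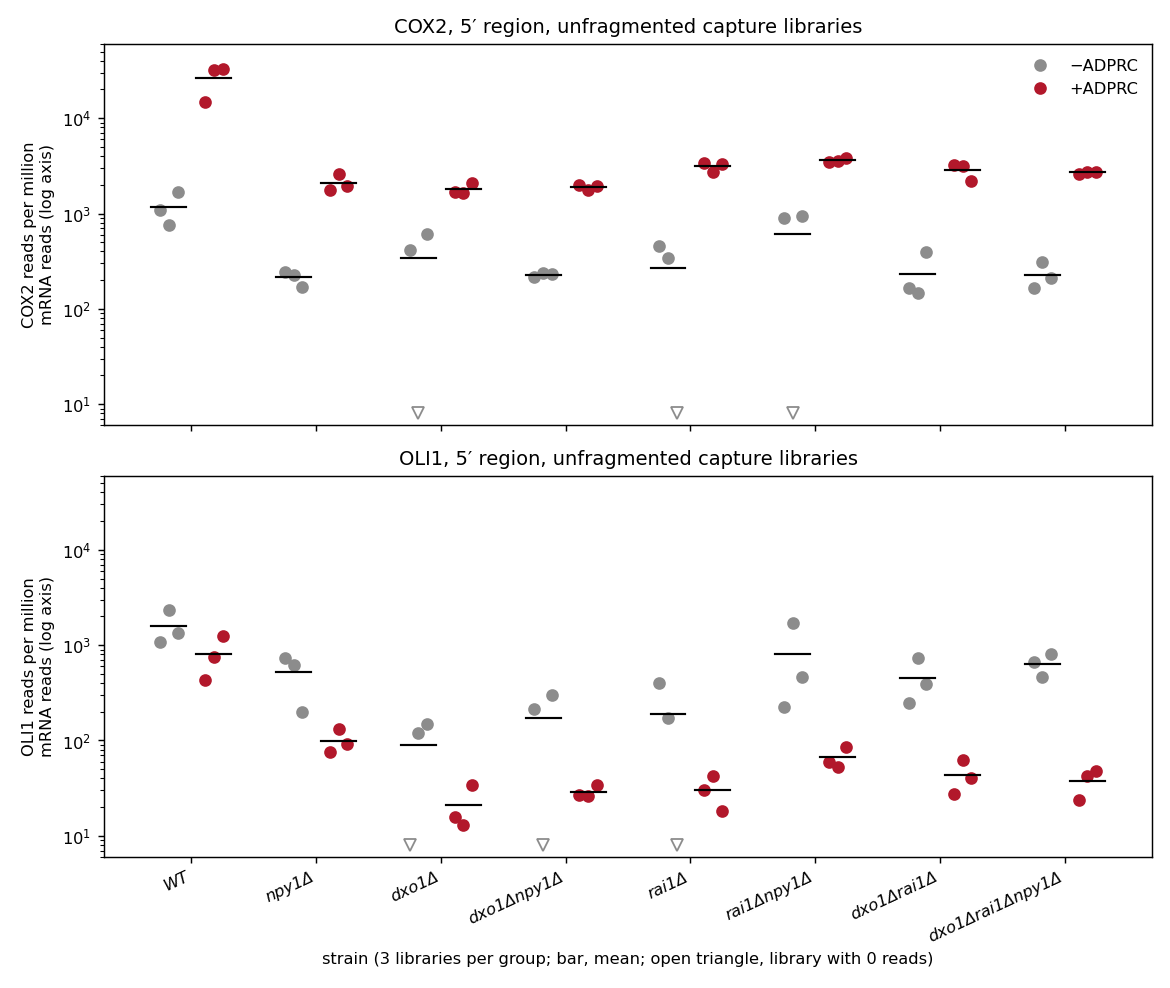
Level of COX2 (top) and OLI1 (bottom) in the 5′ region (CPM of mRNA reads, log axis) in the 48 unfragmented capture libraries, by strain, with a bar at the mean of 3 libraries; open triangles mark libraries with 0 reads. COX2 stands higher with ADPRC in all 8 strains and highest in WT, at 14649 to 33106, whereas the OLI1 means stand lower with ADPRC on this scale. With TMM factors the log2 fold change of OLI1 was positive in dxo1Δ (1.60) and rai1Δnpy1Δ (1.44) and negative in the other strains.

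These calls have to be read against a broad background, because ADPRC raised the share of mRNA reads as a whole. An RNA was called higher with a log2 fold change above 0.50 and an unadjusted p below 0.05. By this rule 50.9% of all RNAs tested were higher in WT, 51.1% in npy1Δ, 87.4% in dxo1Δ, 67.7% in rai1Δ, 67% in dxo1Δnpy1Δ, 74.5% in dxo1Δrai1Δ, 83.3% in rai1Δnpy1Δ and 60% in dxo1Δrai1Δnpy1Δ. Being called is thus common in these libraries, and the size carries more. The COX2 log2 fold change exceeded the median of all RNAs tested by 1.26 in WT, 2.72 in npy1Δ, 1.24 in dxo1Δ, 1.22 in rai1Δ, 2.25 in dxo1Δrai1Δ, 1.73 in rai1Δnpy1Δ and 2.86 in dxo1Δrai1Δnpy1Δ, but by only 0.29 in dxo1Δnpy1Δ. With library sizes taken from mRNA reads alone, COX2 was still called higher in 8 of 8 strains, with log2 fold changes of 2.22 to 4.54. The median of all RNAs then lay between −0.73 (rai1Δnpy1Δ) and 2.57 (WT), and higher calls made up 39.1% to 74.4% of all calls.

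OLI1 behaved differently in the same libraries. In WT it had 40, 93 and 19 reads without and 88, 46 and 37 with ADPRC, a log2 fold change of −0.15 (SE 0.53), and the groups overlapped. In npy1Δ the counts were 27, 49 and 13 against 49, 38 and 49 (−0.22, SE 0.55). With TMM factors OLI1 was called higher in 0 of 8 strains by edgeR at the unadjusted limit, and in 1, dxo1Δnpy1Δ, by DESeq2. Its TMM values were positive in dxo1Δ (1.60, SE 1.06) and rai1Δnpy1Δ (1.44, SE 0.78), neither called, and negative in the other strains. It was called lower in dxo1Δnpy1Δ, at 8, 0 and 9 against 7, 23 and 6 reads (−1.38, SE 0.57, adjusted p = 0.0233), and in dxo1Δrai1Δnpy1Δ, at 8, 3 and 34 against 7, 29 and 37 reads (−2.02, SE 0.44, adjusted p = 2.48e-05), where 10.1% and 8.63% of all RNAs were called lower. Summed counts are not lower with ADPRC in these strains (17 against 36 reads in dxo1Δnpy1Δ, 45 against 73 in dxo1Δrai1Δnpy1Δ). Single counts go both ways, and the treated libraries hold more mRNA reads. The direction depends on the scaling. In dxo1Δnpy1Δ OLI1 was at 1.76 with RLE factors and at 2.02 with total counts, both called higher. In dxo1Δrai1Δnpy1Δ total counts gave 0.19. Over the 8 strains OLI1 was called higher in 4 and lower in 1 with RLE factors, and higher in 3 with total counts. Higher calls were then 83.8% to 97.8% (RLE) and 94.3% to 99.2% (total counts) of all calls. Without replicate 3 of the dxo1Δrai1Δnpy1Δ controls OLI1 was at −0.31, and without replicate 1 or 3 of the dxo1Δnpy1Δ controls at −0.78 or −0.61, none of them called. Against mRNA reads alone OLI1 was called lower in 7 of 8 strains (−4.13 to −1.04), the exception being dxo1Δ. Lower calls took a larger part of all calls with these sizes, where higher calls made up 39.1% to 74.4% in place of 84.3% to 91.8%. The share of all RNAs called lower with these sizes is not given here. On that scale COX2 and OLI1 were thus called in opposite directions in 7 strains.

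Of the remaining mRNAs few reads were captured. COX3, at 1, 9 and 0 control and 9, 20 and 5 treated reads in WT, did not pass the test there (log2 fold change 1.71, SE 1.14, adjusted p = 0.173). In dxo1Δ it had 0, 0 and 0 control and 7, 2 and 3 treated reads, at least 2.19-fold higher with a floor of 3 control reads over the group. It passed the filter on low counts there only through the treated libraries, so its call in that strain (adjusted p = 0.00375) could have had no other direction. ATP6 had 0, 0 and 1 control and 7, 1 and 2 treated reads in WT, and its groups overlapped. ATP8 had 0 reads in all 3 dxo1Δrai1Δ controls and 5, 4 and 6 in the treated libraries, which at this depth was not called (adjusted p = 0.0644). VAR1 had 5 reads over all 72 capture libraries and was tested in none. Of the 8 mRNAs, 2 (rai1Δ) to 5 (WT and dxo1Δrai1Δ) passed the filter of a mean normalized count above 1 per strain. For ATP6 in WT the 95% interval of the log2 fold change ran from −2.89 to 6.93, which holds both 0 and the value of COX2.

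**Figure D2:**
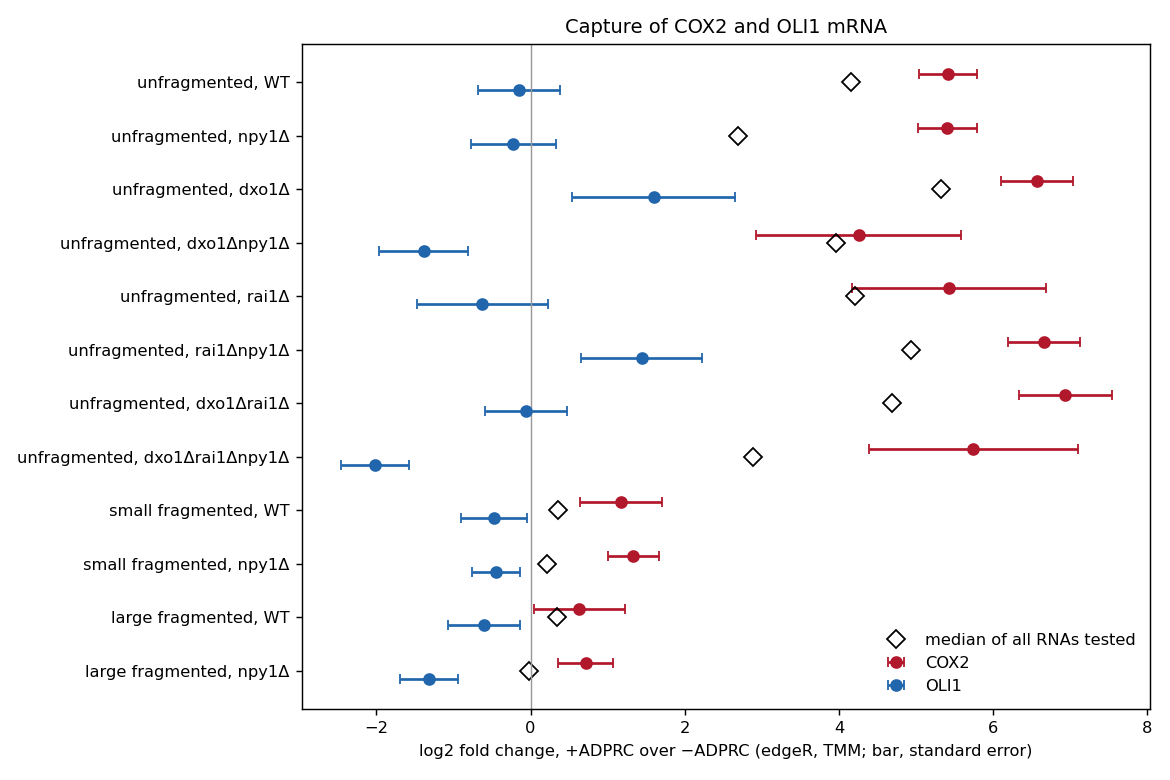
Log2 fold change of +ADPRC over −ADPRC libraries for COX2 and OLI1 (edgeR, TMM factors; bars, standard error; 3 and 3 libraries) in the 12 capture comparisons, with the median of all RNAs tested as an open diamond. COX2 lies at 4.26 to 6.94 in the unfragmented libraries and at 0.63 to 1.34 in the fragmented ones, and OLI1 lies below the median throughout.

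Sheared RNA gave a much smaller COX2 signal, with far more control reads. In small fragments of WT, COX2 had 120, 139 and 145 reads without and 867, 166 and 763 with ADPRC (1.17, SE 0.53, adjusted p = 0.300), where 12.4% of all RNAs were called higher. The call was lost with DESeq2 (1.05), with the adjusted limit, and without control replicate 1 (1.08), 2 (1.27) or 3 (1.18) or treated replicate 3 (0.67). In npy1Δ the counts were 29, 35 and 17 against 50, 150 and 92, and all treated libraries lay above all controls (1.34, SE 0.33, adjusted p = 0.0329; 13.2% of all RNAs higher). Large fragments gave weaker values still. COX2 was not called in WT, at 186, 78 and 156 against 226, 139 and 315 reads (0.63, SE 0.58), and 0 of the 5 mRNAs tested there had an unadjusted p below 0.05 or were called by DESeq2, against 13.2% of all RNAs called higher by edgeR. In large fragments of npy1Δ COX2 passed the unadjusted limit only, at 15, 13 and 72 against 40, 37 and 38 reads (0.71, SE 0.35, adjusted p = 0.281; 9.42% of all RNAs higher), and not without control replicate 1 (0.63) or 2 (0.64) or treated replicate 2 (0.62) or 3 (0.48). The groups overlapped in both strains. Without treated replicate 3 the WT value was −0.04, and without treated replicate 2 it was 1.20 and called. The other members were not called higher in fragmented RNA, where COX3 in small fragments of WT had 37, 39 and 38 against 70, 34 and 35 reads and ATP6 19, 18 and 29 against 59, 19 and 28. OLI1 was called lower in large fragments of npy1Δ, at 17, 22 and 80 against 15, 14 and 8 reads (−1.31, SE 0.37, adjusted p = 0.0239; 7.34% of all RNAs lower), a call lost with total counts (−0.58). Over the 12 capture comparisons COX2 was called higher in 11 and OLI1 lower in 3.

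Whether the enzymes alter the capture of COX2 was tested as a difference between strains in the log2 fold change. Scaling factors were then set over all libraries of both strains, so that a difference need not equal the gap between the separate fold changes above. NPY1 deletion can be judged within runs. The difference was −1.0 for npy1Δ against WT (SE 0.54, 95% interval −2.07 to 0.07, adjusted p = 0.313), −2.38 for dxo1Δnpy1Δ against dxo1Δ (SE 1.28, −4.89 to 0.14, adjusted p = 0.253), 0.92 for rai1Δnpy1Δ against rai1Δ (SE 1.29, −1.60 to 3.45, adjusted p = 0.879) and −1.39 for dxo1Δrai1Δnpy1Δ against dxo1Δrai1Δ (SE 1.28, −3.91 to 1.13, adjusted p = 0.613). None passed at an adjusted p below 0.05 with edgeR, and none of the 4 had an unadjusted p below 0.05 or was called by DESeq2. The medians of all RNAs in these comparisons were −1.48, −2.19, 0.86 and −1.26, so COX2 lay within 0.5 of the general shift each time. Of all RNAs, 8.13%, 0% and 0.0975% were called in either direction against WT, rai1Δ and dxo1Δrai1Δ respectively, and 2.58% were called lower against dxo1Δ. The sign of the COX2 difference turned with the scaling in all 4.

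Against WT, where run and strain cannot be told apart, the COX2 differences ran from −0.77 (rai1Δnpy1Δ, SE 0.82) to 1.36 (dxo1Δrai1Δ, SE 0.72, adjusted p = 0.390). None was called by edgeR, and none had an unadjusted p below 0.05, for COX2 or another member. DESeq2, whose size factors are other than TMM, called the COX2 enrichment higher in rai1Δ (2.51), dxo1Δnpy1Δ (2.40), dxo1Δrai1Δ (2.91) and dxo1Δrai1Δnpy1Δ (2.96), and that of OLI1 in dxo1Δnpy1Δ. With RLE factors in edgeR the medians of all RNAs in these comparisons were 2.48, 2.21, 1.92 and 1.48, so a general shift stands beside the COX2 values. The share of all RNAs that DESeq2 called is not given here. All 6 comparisons share the same WT libraries, and of all RNAs edgeR called 8.78% (dxo1Δ), 12.4% (rai1Δ), 9.78% (dxo1Δnpy1Δ), 5.85% (dxo1Δrai1Δ), 13.1% (rai1Δnpy1Δ) and 7.06% (dxo1Δrai1Δnpy1Δ) in either direction. The other testable mRNAs gave 1 call in the 10 comparisons of capture between strains. COX3 was lower in dxo1Δnpy1Δ than in dxo1Δ (adjusted p = 0.0375), from counts of 7, 2 and 3 over controls of 0 in dxo1Δ and of 1, 8 and 4 over 3, 0 and 4 in dxo1Δnpy1Δ. The call was lost under most alternatives. COX3 had an unadjusted p below 0.05 also for npy1Δ against WT (adjusted p = 0.139) and dxo1Δrai1Δnpy1Δ against dxo1Δrai1Δ (adjusted p = 0.465). OLI1 had unadjusted p values below 0.05 in the dxo1Δnpy1Δ (−3.21, adjusted p = 0.0872) and dxo1Δrai1Δnpy1Δ (−2.19, adjusted p = 0.198) comparisons by NPY1 deletion.

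The capture signal can be set beside the level of each message in the same strains. COX2 had a CPM of 26461 ± 10256 (SD, n = 3), with CPM taken over the mRNA reads of a library, in treated WT libraries, where it ranked 3 of 4622 mRNAs with reads, 1173 ± 470 in the controls and 2723 ± 848 in the transcriptome 5′ regions, where it ranked 48 of 6445. The captured share was thus 9.72 times the transcriptome share in WT. In npy1Δ it was 2102 ± 413 against 275.1 ± 20.0, or 7.64 times. The ratio was lower in the strains sequenced in other runs, between 1.42 (dxo1Δrai1Δnpy1Δ) and 2.06 (rai1Δnpy1Δ), where treated libraries had a mean COX2 CPM of 1797 to 3618. OLI1 stood below its transcriptome share in every strain, at 0.416 times in WT, 0.188 in npy1Δ and 0.0443 to 0.108 in the other 6. These ratios compare library kinds that were prepared differently, and they were not tested.

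In the transcriptomes, coding-sequence counts covered all 8 mRNAs. Levels in CPM of mRNA reads per kilobase of coding length (RefSeq R64) order the members by counted reads. In WT the order was OLI1 at 9627 ± 2185 (SD, n = 3), COX2 at 7465 ± 1459, ATP6 at 4537 ± 1053, COX3 at 4100 ± 601, COX1 at 3960 ± 582, COB at 1835 ± 321, VAR1 at 9.08 ± 2.26 and ATP8 at 8.62 ± 3.19. OLI1 and COX2 overlapped within their spread, as did ATP6, COX3 and COX1, and VAR1 and ATP8. By counted reads COB stood apart from the messages above and below it. The intron reading frames that share the start codons of COX1 and COB were at 0 in the coding-sequence counts too. Whether reads set aside between such entries lower the values of COX1 and COB was not tested. In npy1Δ the order began with OLI1 at 1535 ± 332 and COX2 at 411 ± 64.5, followed by COX1 at 364 ± 65.8, ATP6 at 344 ± 56.8, COX3 at 328 ± 75.0 and COB at 165 ± 33.6. By these counts ATP8 and VAR1 were the lowest in all strains. Whether their counts follow the level of the messages was not tested. The coding sequence of ATP8 is 147 bases long and held 176 reads over all 24 libraries, of which 28, 33 and 18 were in WT. OLI1, 231 bases long, held 375331.

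**Figure D3:**
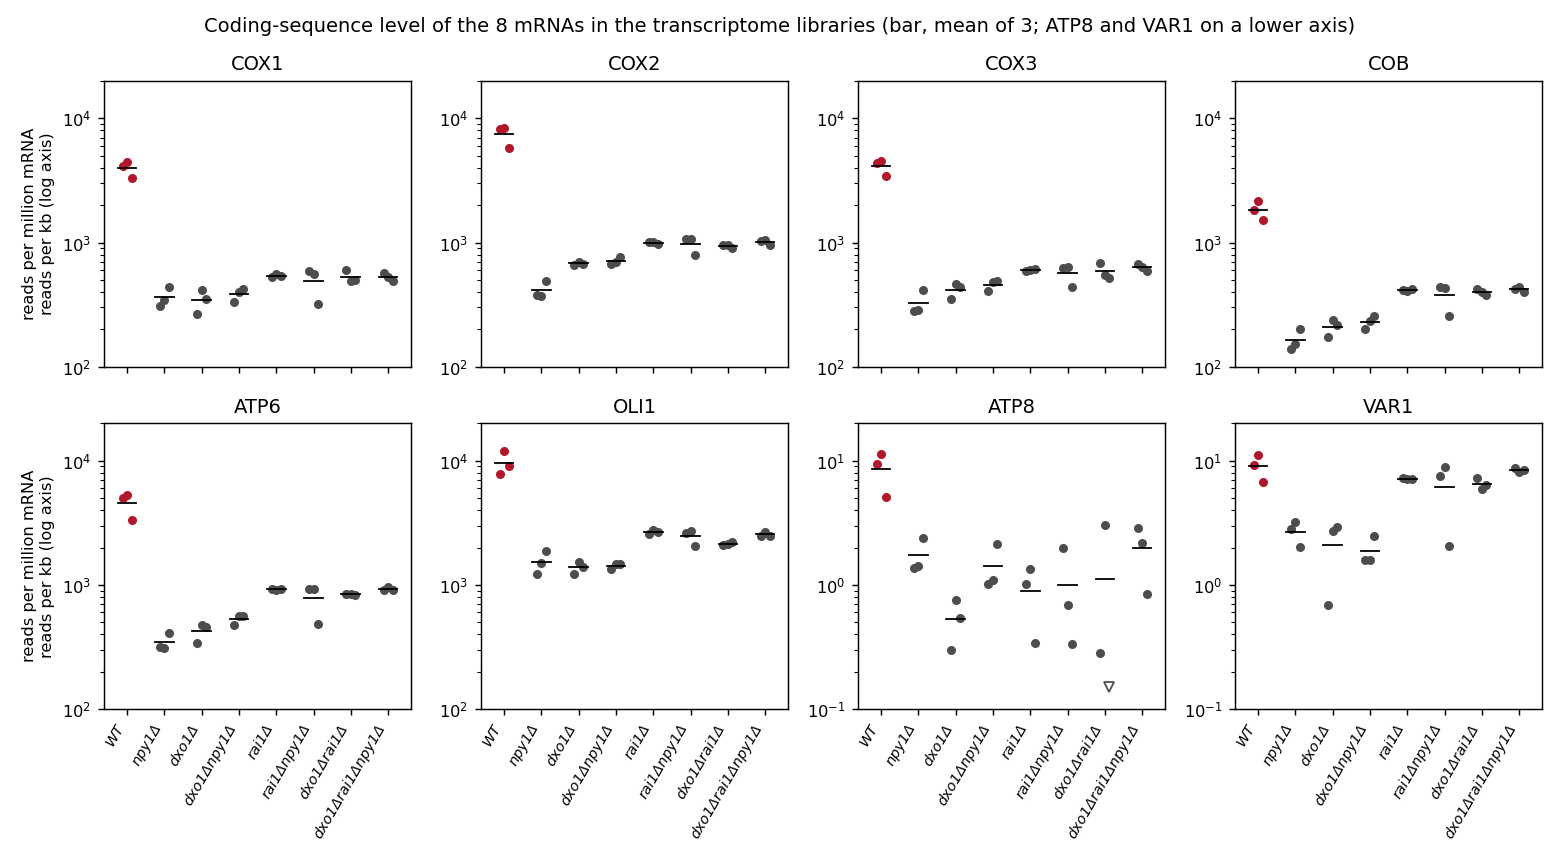
Coding-sequence level of the 8 mRNAs (CPM of mRNA reads per kb, log axis) in the 24 transcriptome libraries, by strain, with a bar at the mean of 3; WT in red, and an open triangle for a library with 0 reads. ATP8 and VAR1 are drawn on a lower axis, and in the other 6 panels all WT libraries lie above all mutant libraries. The share of all RNAs with such a separation was not taken.

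Most of the mitochondrial mRNAs were less abundant in every mutant than in WT. Together they took 2.32 ± 0.39% of mRNA coding-sequence reads in WT (SD, n = 3) and 0.198 ± 0.037% in npy1Δ, with means of 0.230% to 0.394% in the other mutants. In npy1Δ, the mutant that shares the run of WT, all 8 were lower. COX1 fell from 134646, 140567 and 127379 to 17246, 18535 and 19958 reads (log2 fold change −3.15, SE 0.15, adjusted p = 9.44e-09), and COX2 from 124619, 126474 and 105071 to 9925, 9340 and 10451 (−3.89, SE 0.18, adjusted p = 5.14e-09). COX3 was at −3.35, ATP6 at −3.43 and COB at −3.19, and the smaller changes were those of OLI1 (−2.35), ATP8 (−2.01) and VAR1 (−1.44, SE 0.22, adjusted p = 0.000112). No WT library overlapped npy1Δ for any of the 8. In this comparison 39.5% of all RNAs were called lower and 40.7% higher, and the share of all RNAs without overlap was not taken.

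The remaining mutants showed the same pattern in another run. All 8 mRNAs were lower in dxo1Δ, rai1Δ, dxo1Δnpy1Δ and dxo1Δrai1Δ, and 7 of 8 in rai1Δnpy1Δ and dxo1Δrai1Δnpy1Δ, where VAR1 was at −0.61 (adjusted p = 0.119) and −0.12 (adjusted p = 0.457). Over the 7 mutants COX1 changed by −3.35 to −2.89, COX2 by −3.89 to −2.90, COX3 by −3.35 to −2.72, COB by −3.19 to −2.13, ATP6 by −3.43 to −2.31 and OLI1 by −2.60 to −1.89. The VAR1 calls in rai1Δ (−0.38) and dxo1Δrai1Δ (−0.45) were lost without WT replicate 2 (−0.23 and −0.30) and with total counts. All comparisons rest on the same 3 WT libraries. These differed from the mutant libraries in composition too: total counts as library size moved the median of all RNAs by 0.17 (npy1Δ) to 0.46 (rai1Δ). Of all RNAs 39.5% were called lower in npy1Δ, 41.1% in dxo1Δ, 41.5% in rai1Δ, 41% in dxo1Δnpy1Δ, 41.2% in dxo1Δrai1Δ, 40.9% in rai1Δnpy1Δ and 41.8% in dxo1Δrai1Δnpy1Δ, so the direction is shared with a large part of the transcriptome. The median of all RNAs lay between 0.03 and 0.09, near the 0 on which the scaling centres it. A list of 35 nuclear genes that serve the same complexes had medians of −2.93 to −2.54. Fewer mitochondria and less RNA per mitochondrion cannot be told apart in such libraries. What set the 3 WT libraries apart from those of the mutants was not tested.

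The 5′-region counts of the transcriptome gave the same direction for the 5 mRNAs with enough reads. COX2, COX3, ATP8, ATP6 and OLI1 were lower in all 7 mutants, where 34.6% (npy1Δ), 36.1% (dxo1Δ), 36.3% (rai1Δ), 36.7% (dxo1Δnpy1Δ), 35.5% (dxo1Δrai1Δ), 36.4% (rai1Δnpy1Δ) and 36.8% (dxo1Δrai1Δnpy1Δ) of all RNAs were called lower. COX2 had 2750, 5636 and 4360 reads in WT and 549, 430 and 449 in npy1Δ (−3.61, SE 0.20). In rai1Δ it had 3231, 3157 and 3156, a log2 fold change of only −0.86 (SE 0.16), and in dxo1Δrai1Δnpy1Δ 3493, 2989 and 3643 (−0.84, SE 0.15). For COX2 these 5′ values are smaller in size than its coding-sequence changes in the same strains, and with total counts as library size those of rai1Δ, dxo1Δrai1Δ, rai1Δnpy1Δ and dxo1Δrai1Δnpy1Δ were positive (0.34 to 0.88) and those of dxo1Δ and dxo1Δnpy1Δ near 0 (−0.02 and −0.07), a scaling that moved the median of all RNAs by 1.47 to 1.77 and the share of higher among all calls from between 50.7% and 52.9% to between 85.6% and 86.5%. COX3 was at −3.44 to −2.70, ATP6 at −3.87 to −2.92 and OLI1 at −2.73 to −1.82 over the 7 mutants. VAR1 had 4, 2 and 2 reads in dxo1Δrai1Δnpy1Δ and none in WT. It passed the filter on low counts there only through the mutant libraries and was not tested in the other 6 comparisons, so that its call by edgeR, beside 40.7% of all RNAs called higher, could have had no other direction, and DESeq2 did not call it.

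RAI1 deletion could be judged within the run of the 6 other mutants. Coding-sequence counts of 7 of the 8 mRNAs were higher in dxo1Δrai1Δ than in dxo1Δ, and 7 of 8 in dxo1Δrai1Δnpy1Δ than in dxo1Δnpy1Δ, where 20.7% and 20.1% of all RNAs were called higher. Higher calls were 53.0% to 55.5% of all calls in these comparisons, and 74.5% to 80.7% with library sizes from mRNA reads. ATP8, with at most 16 reads in a library, was the member not called in both. The changes were moderate for COX1 (0.48, SE 0.13, and 0.34, SE 0.10), COX2 (0.31 and 0.39), COX3 (0.34 and 0.34) and OLI1 (0.48 and 0.71) and somewhat larger for COB (0.79 and 0.75) and ATP6 (0.83 and 0.67). VAR1 differed most, with 19, 88 and 89 reads in dxo1Δ and 210, 252 and 181 in dxo1Δrai1Δ (1.45, SE 0.32, adjusted p = 0.00682), and with 51, 47 and 67 reads in dxo1Δnpy1Δ and 220, 184 and 244 in dxo1Δrai1Δnpy1Δ (2.05, SE 0.17, adjusted p = 2.59e-05). Neither pair of VAR1 groups overlapped, and the share of all RNAs without overlap was not taken. In rai1Δ VAR1 had 175, 174 and 170 reads and in rai1Δnpy1Δ 188, 213 and 50. Replicate 1 of dxo1Δ and replicate 3 of rai1Δnpy1Δ stood apart from their groups in VAR1 and also had the fewest ATP6 and COX3 reads. Without that dxo1Δ library VAR1 was at 1.05 (adjusted p = 0.00133), and COX3 was no longer called (0.22). COX3 in this pair was also lost without dxo1Δ replicate 2 (0.37) or dxo1Δrai1Δ replicate 1 (0.23) or 2 (0.36), and COX1 without dxo1Δrai1Δ replicate 1 (0.40). In the other pair COX1 was lost without dxo1Δnpy1Δ replicate 1 (0.25) or dxo1Δrai1Δnpy1Δ replicate 1 (0.30) or 2 (0.33). The 5′-region counts called ATP6 (0.82) and OLI1 (0.43) higher in the first pair, with 8.36% of all RNAs, and COX2 (0.86), COX3 (0.57) and OLI1 (0.83) in the second, with 14.2%.

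**Figure D4:**
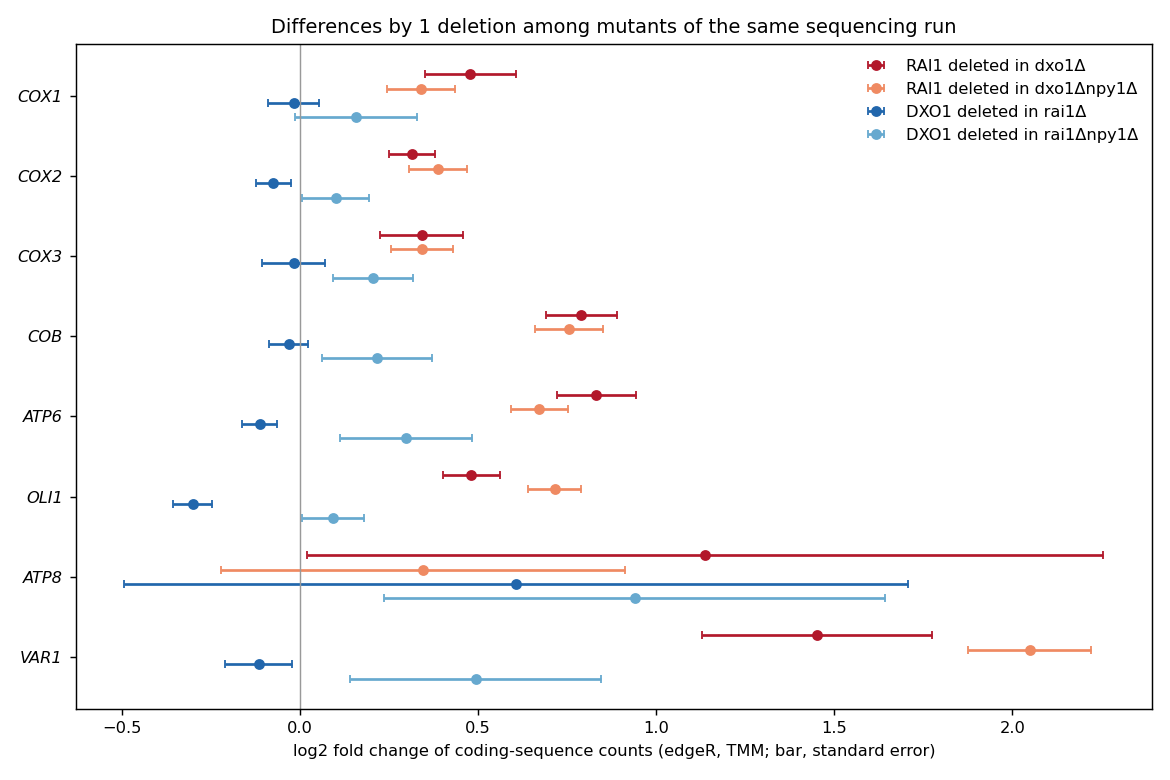
Log2 fold change of coding-sequence counts of the 8 mRNAs (edgeR, TMM factors; bars, standard error; 3 and 3 libraries) for RAI1 deletion (red and orange) and DXO1 deletion (blue tones) among mutants of 1 sequencing run. The RAI1 values of the 7 called mRNAs lie between 0.31 and 2.05, and no DXO1 value was called by edgeR.

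Deletion of DXO1 in strains without RAI1, and of NPY1 in the strains of this run, gave no call in the coding-sequence counts with edgeR. For dxo1Δrai1Δ against rai1Δ, OLI1 was the only mRNA with an unadjusted p below 0.05 (−0.30, SE 0.05, adjusted p = 0.158), and DESeq2 called it. For dxo1Δrai1Δnpy1Δ against rai1Δnpy1Δ 0 of 8 had an unadjusted p below 0.05, and DESeq2 called 0. For NPY1 the unadjusted counts were 1 (dxo1Δnpy1Δ against dxo1Δ), 0 (rai1Δnpy1Δ against rai1Δ) and 3 (dxo1Δrai1Δnpy1Δ against dxo1Δrai1Δ, where OLI1 was at 0.26, SE 0.06, adjusted p = 0.159, and was the 1 mRNA that DESeq2 called). Of all RNAs 0.014% were called in each of the DXO1 comparisons and 0.0141%, 0.042% and 0.182% in the NPY1 comparisons. In the 5′-region counts OLI1 alone was called, higher in dxo1Δrai1Δnpy1Δ than in dxo1Δrai1Δ (0.41, adjusted p = 0.0495; 0.546% of all RNAs higher) and lower in dxo1Δrai1Δ than in rai1Δ (−0.46, adjusted p = 0.0429; 0.417% lower). The other 3 of these 5 comparisons had no call in the 5′ regions with edgeR or DESeq2, where 0.0289% (dxo1Δnpy1Δ against dxo1Δ), 0.0574% (rai1Δnpy1Δ against rai1Δ) and 0.115% (dxo1Δrai1Δnpy1Δ against rai1Δnpy1Δ) of all RNAs were called and 0, 1 and 1 members had an unadjusted p below 0.05. The loss of the mitochondrial mRNAs in npy1Δ against WT therefore had no called counterpart when NPY1 was deleted in dxo1Δ, rai1Δ or dxo1Δrai1Δ. Whether the effects differ was not tested.

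COX2 also differed from its neighbours in how its transcriptome reads were spread. Reads in its 5′ region amounted to 2.21% to 4.46% of its coding-sequence reads in the WT libraries, 4.30% to 5.53% in npy1Δ, 9.84% to 15.5% in the 6 libraries of dxo1Δ and dxo1Δnpy1Δ and 10.0% to 21.3% in the 12 libraries without RAI1. For OLI1 the same measure ranged from 5.65% to 9.74% over all strains, for ATP6 from 1.42% to 3.85% and for COX3 from 0.82% to 3.13%. The rise in COX2 lies between the runs as well as between strains, and these shares were looked at after the counts had been seen and carry no test.

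**Figure D5:**
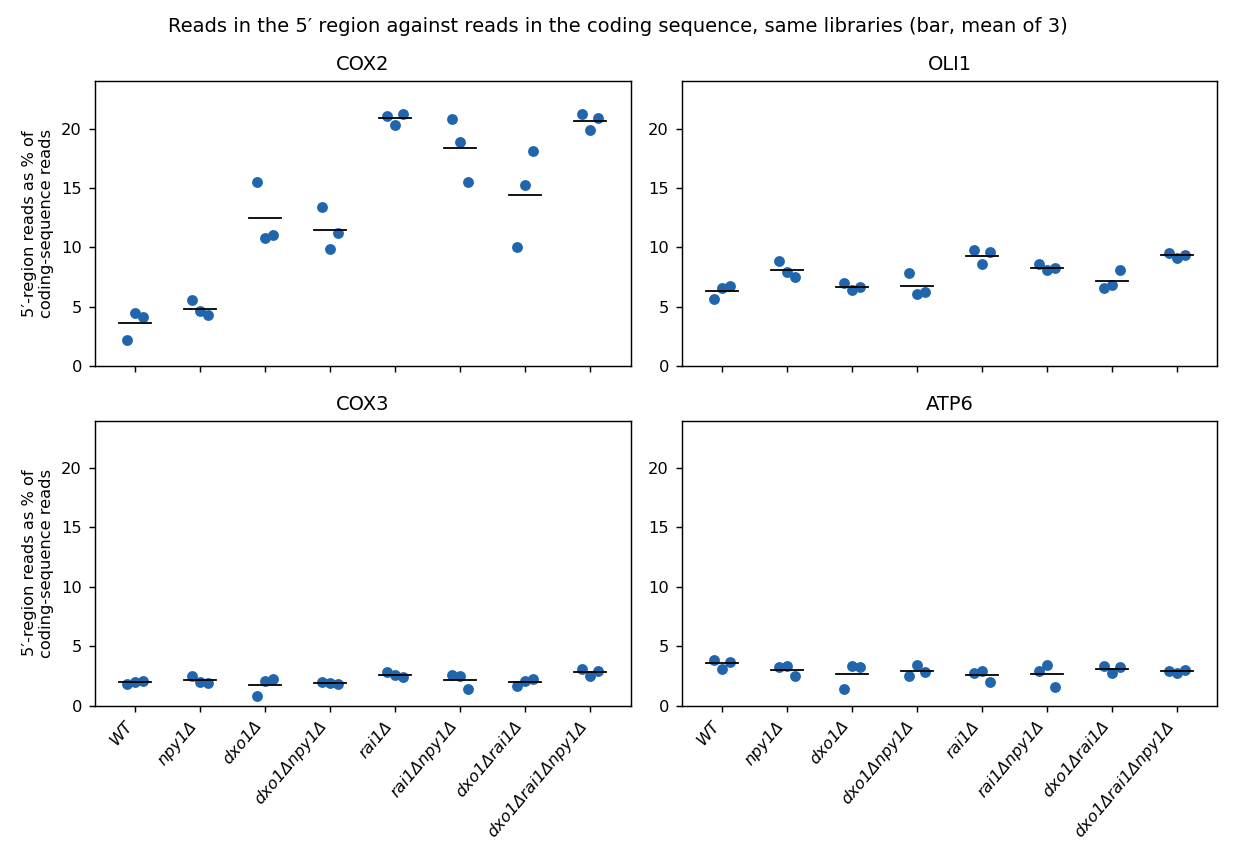
Reads in the 5′ region as a percentage of reads in the coding sequence of the same gene and library, for COX2, OLI1, COX3 and ATP6 in the 24 transcriptome libraries, with a bar at the mean of 3. COX2 runs from 2.21% in a WT library to 21.3% in a library without RAI1, while COX3 and ATP6 stay below 4% in all libraries.

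The nuclear genes that serve the same complexes were followed as a list of 35 genes, all matched. In the transcriptome 5′ regions 34 of 35 were lower than in WT in each of the 7 mutants, with list medians of −2.64 to −2.22 against medians of 0.03 to 0.14 over all RNAs and 34.6% to 36.8% of all RNAs lower. COX26, a small subunit bound to cytochrome c oxidase in supercomplexes, was the lowest in npy1Δ (−6.38, SE 0.19), followed by COX7 (−3.66) and COX12 (−3.17), both subunits of the oxidase. By coding-sequence counts 34 or 35 of 35 were lower, against 39.5% to 41.8% of all RNAs. RAI1 deletion in dxo1Δ raised 12 and lowered 3 of the 35 by these counts, and in dxo1Δnpy1Δ it raised 13 and lowered 2, against 20.7% and 20.1% of all RNAs higher and 16.6% and 17.8% lower. In the unfragmented capture of WT, 29 of the 33 tested were higher with ADPRC, against 50.9% of all RNAs, with a list median of 3.37 against 4.16 over all RNAs. QCR2, a core protein of the bc1 complex, was at 7.42 (SE 0.59).

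A second list held 32 nuclear genes for mitochondrial transcription, RNA processing and turnover, and for translation or splicing of the 8 mRNAs, among them RPO41, MTF1 and the COX2 translation activator PET111. In the transcriptome its members went both ways. By 5′-region counts 10 to 12 of 32 were higher and 7 to 11 lower than in WT, with list medians of 0.07 to 0.20, where 35.6% to 40.7% of all RNAs were higher and 34.6% to 36.8% lower. By coding-sequence counts 10 to 13 were higher and 12 to 15 lower, beside 40.7% to 44.1% and 39.5% to 41.8% of all RNAs. In unfragmented WT capture only 7 of the 32 passed the filter on low counts, and 3 of them were called higher, beside 50.9% of all RNAs.

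The 2 mitochondrial ribosomal RNAs were captured unlike each other. The 21S rRNA was called higher with ADPRC in WT (0.84, SE 0.27), dxo1Δ (3.80), dxo1Δrai1Δ (2.69) and rai1Δnpy1Δ (4.64). In these strains 50.9%, 87.4%, 74.5% and 83.3% of all RNAs were called higher. The medians of all RNAs there were 4.16, 5.33, 4.69 and 4.93, each above the value of the 21S rRNA. The 15S rRNA was called lower in WT (−0.59, SE 0.28, adjusted p = 0.0656) and npy1Δ (−1.01), where 4.78% and 9.48% of all RNAs were called lower. It was called higher in dxo1Δ (1.49) and rai1Δnpy1Δ (1.28), again below the medians of all RNAs. In none of the 8 strains did either rRNA reach the log2 fold change of COX2 in that strain.

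Across the 24 transcriptome libraries the 5′-region levels of 2421 RNAs were compared with those of the 4 members with enough reads. The patterns of COX3 and ATP6 were the most alike (Pearson r = 0.98), that of OLI1 followed COX3 (0.92) and ATP6 (0.86), and COX2 ran less closely with the 3 (0.58 each). Nearest to COX3 was RPM1, the mitochondrially encoded RNA of RNase P (0.96), and nearest to ATP6 was GCN4, a transcription factor of amino acid synthesis (0.96). NCE102, a plasma membrane protein of eisosomes, was among the 3 nearest of both, at 0.96 each. Nearest to OLI1 were COX9 and COX7, nuclear subunits of cytochrome c oxidase, at 0.97 each. Nearest to COX2 were the small nucleolar RNAs snR80 and snR33 and the acetaldehyde dehydrogenase gene ALD6, all at 0.90. The values describe 24 libraries that share strains and runs, and WT stands apart in most of them.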

How the data were processed

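Adapters were clipped by the authors, who set rRNA and tRNA aside before aligning with bowtie (BY4742 genome from Toronto) and deposited unnormalized counts per RNA, strand-specific, from htseq-count. These counts cover the 5′ region of each mRNA and, for transcriptomes, also the coding sequence. No molecular identifiers were used, so reads are not independent molecules and intervals leave out PCR copying. The submitters' notes name DESeq2 1.4.5 and SAMtools 0.1.13. The deposited tables of comparisons (the authors' fold changes and p-values) were not used.

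Counts were tested with edgeR 4.0.16 in R 4.3.3 (quasi-likelihood F test, TMM factors, mean normalized count above 1, Benjamini-Hochberg adjustment over all RNAs tested), in 12 capture comparisons, 10 interaction tests and 14 transcriptome comparisons. Capture calls required a log2 fold change above 0.50 or below −0.50 and an unadjusted p below 0.05, the other calls an adjusted p below 0.05. Settings were tested on simulated data. Alternatives were DESeq2 1.42.0, RLE, total-count and mRNA-only library sizes, no filter, filterByExpr, an adjusted limit, all transcriptomes in 1 fit, coding-sequence counts, the replicate block and each library left out. Figures and descriptions used pandas 2.3.3 and matplotlib 3.10.9. The study calls its replicates biologically independent.

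All 8 mRNAs are named. The 2 companion lists were fixed by role, and named list genes are the most changed with a mean count above 10. Members and lists were chosen with earlier results of these data known. Replicate numbers paired the samples, with all correlations of same-numbered deviations above 0.1, only in the coding-sequence comparisons of rai1Δnpy1Δ with rai1Δ (0.52, 0.26 and 0.16) and dxo1Δrai1Δnpy1Δ with dxo1Δnpy1Δ (0.13, 0.19 and 0.18).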

Additional observations from a re-analysis of the deposited data

Results flagged for a closer look

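With edgeR, COX3 was the 1 mitochondrial mRNA whose capture differed between strains by the test of the difference itself, and DESeq2 called COX2 (4 strains) and OLI1 (1 strain) against WT but not COX3. Its enrichment was lower in dxo1Δnpy1Δ than in dxo1Δ (adjusted p = 0.0375, edgeR interaction term), where the dxo1Δ controls held 0, 0 and 0 reads and those of dxo1Δnpy1Δ 3, 0 and 4. No fold change is given, since 1 control group is at 0. The call was lost with RLE factors, total counts, mRNA-only library sizes, filterByExpr and DESeq2 and without most single libraries, and the cause was not tested.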

How the results depend on the processing

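COX2 was called higher in all 8 strains of unfragmented RNA under every alternative, including each library left out. Of the changes in call counts, the following went beyond 1.5 times. With total counts the number of mRNAs called higher went from 1 to 2 in WT and rai1Δ, 2 to 4 in dxo1Δ, 1 to 4 in dxo1Δnpy1Δ and dxo1Δrai1Δnpy1Δ, 1 to 3 in dxo1Δrai1Δ and rai1Δnpy1Δ, and 0 to 1 in large fragments of WT. RLE gave 4 in dxo1Δ and dxo1Δnpy1Δ, 3 in rai1Δ, dxo1Δrai1Δ and rai1Δnpy1Δ and 2 in dxo1Δrai1Δnpy1Δ, and DESeq2 gave 3 in dxo1Δnpy1Δ and dxo1Δrai1Δ. No filter gave 2 in dxo1Δrai1Δ and rai1Δnpy1Δ, while mRNA-only sizes and filterByExpr gave 1 in dxo1Δ. The call in small fragments of WT went to 0 with DESeq2, the block and the adjusted limit, and that in large fragments of npy1Δ to 0 with DESeq2 and the adjusted limit. For differences in capture, dxo1Δnpy1Δ against dxo1Δ went from 1 to 0 with RLE, total counts, mRNA-only sizes, filterByExpr, DESeq2 and the block. Against WT, 0 became 1 for rai1Δ (RLE, DESeq2), dxo1Δnpy1Δ (RLE, total counts, mRNA-only; 2 with DESeq2), dxo1Δrai1Δ (RLE, total counts, mRNA-only, DESeq2), rai1Δnpy1Δ (mRNA-only) and dxo1Δrai1Δnpy1Δ (RLE, total counts, DESeq2; 2 with mRNA-only).

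In the transcriptome, coding-sequence in place of 5′-region counts gave 8 called members in place of 5 for npy1Δ, dxo1Δ, rai1Δ, dxo1Δnpy1Δ and dxo1Δrai1Δ against WT, 7 in place of 2 for dxo1Δrai1Δ against dxo1Δ, 7 in place of 3 for dxo1Δrai1Δnpy1Δ against dxo1Δnpy1Δ, and 0 in place of 1 for dxo1Δrai1Δnpy1Δ against dxo1Δrai1Δ and dxo1Δrai1Δ against rai1Δ. These last 2 comparisons also went to 0 in a fit of all 24 libraries and with mRNA-only sizes, and to 2 with DESeq2 or the block (NPY1) and with total counts (DXO1). The pair dxo1Δrai1Δ against dxo1Δ fell to 1 with DESeq2, the block and the fit of 24 libraries.

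Reversed signs were those of OLI1 in WT capture (0.20 RLE, 0.54 total counts, 0.19 DESeq2), in dxo1Δnpy1Δ (1.76, 2.02 and 1.90) and in dxo1Δrai1Δnpy1Δ (0.19, total counts). COX2 differences by NPY1 turned to 0.70 (RLE), 0.44 (total counts) and 0.71 (DESeq2) against WT, to 0.64, 0.63, 0.53 (mRNA-only) and 0.66 in dxo1Δ, to −0.75, −0.60, −0.73 and −0.80 in rai1Δ, and to 0.0054 (mRNA-only) in dxo1Δrai1Δ. Against WT, COX2 turned to 2.45, 1.98 and 2.51 in rai1Δ and to 1.71, 1.31 and 1.72 in rai1Δnpy1Δ (RLE, total counts, DESeq2), and with mRNA-only sizes to −2.03 in dxo1Δ, −1.49 in dxo1Δnpy1Δ, −0.92 in dxo1Δrai1Δ and −0.92 in dxo1Δrai1Δnpy1Δ. With total counts COX2 5′ counts against WT turned to 0.88 in rai1Δ, 0.34 in dxo1Δrai1Δ, 0.68 in rai1Δnpy1Δ and 0.83 in dxo1Δrai1Δnpy1Δ, and VAR1 coding counts to 0.075 in rai1Δ and 0.30 in dxo1Δrai1Δnpy1Δ. In these cases the cause was not tested. The share of higher among all calls went from between 84.3% and 91.8% in unfragmented capture to between 39.1% and 74.4% with mRNA-only sizes, from between 56.2% and 86.5% in fragmented capture to between 87.8% and 98.9% with total counts, and from between 0% and 33.3% for differences to between 61.9% and 88.2% with RLE and between 38.3% and 77.5% with total counts.

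Leaving out single libraries, the counts ranged over 1 to 2 in WT and dxo1Δrai1Δ, 1 to 3 in rai1Δnpy1Δ and 0 to 1 in fragments of WT (small and large) and large fragments of npy1Δ. Differences by NPY1 ranged over 0 to 1 (WT), 0 to 3 (dxo1Δ) and 0 to 2 (dxo1Δrai1Δ), and 5′ transcriptome counts over 0 to 2 for dxo1Δrai1Δnpy1Δ against dxo1Δrai1Δ and for dxo1Δrai1Δ against rai1Δ or dxo1Δ. Values whose sign turned were OLI1 in WT capture (−0.34 to 0.22), COX2 in large fragments of WT (−0.0419 to 1.20), COX2 differences of rai1Δnpy1Δ against rai1Δ (−1.19 to 1.52) and of dxo1Δ (−0.62 to 1.66), rai1Δ (−0.87 to 0.42) and rai1Δnpy1Δ (−1.18 to 0.0723) against WT, COX3 5′ counts of dxo1Δrai1Δ against dxo1Δ (−0.0755 to 0.56) and VAR1 coding counts of dxo1Δrai1Δnpy1Δ against WT (−0.30 to 0.0369).

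With the replicate block 10 of 277 member tests changed their call, among them both lower calls of OLI1 in unfragmented capture (−1.14 in dxo1Δnpy1Δ and −1.56 in dxo1Δrai1Δnpy1Δ), COX2 in small fragments of WT (0.98) and the COX3 difference. In these captures same-numbered samples share only a number. In the 2 comparisons that the numbers paired it changed none. Low capture counts limit what can be said of COX3, ATP6, ATP8 and VAR1.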
